A study of Mus musculus with 25 samples.

Results

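The mitochondrial genome is expressed as 37 genes, and the transcripts of all of them were followed in mouse *soleus* muscle with and without the DNA methyltransferase *Dnmt3a*. The members were every row of the count table that lies on the mitochondrial chromosome, each with a symbol that begins with mt-, so no measured value chose them. They were 37 of 52636 genes: 13 mRNAs, 2 rRNAs and 22 tRNAs.

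All mice were 12 weeks old, of the C57BL/6 strain and homozygous for a floxed allele of *Dnmt3a* (*Dnmt3a* flox/flox), the WT controls included. The mD3AKO mice carried in addition a Cre transgene under the muscle creatine kinase promoter (*mCK-Cre*), which is active late in muscle differentiation, so that satellite cells and non-muscle cells of the tissue may keep the intact gene. Total RNA of a whole *soleus*, 1 muscle from each of 25 mice, was sequenced after depletion of ribosomal RNA. Groups were WT at rest (n = 5; 2 females, 3 males), WT killed 60 min after a treadmill run of 30 min (n = 7; 4 females, 3 males), mD3AKO at rest (n = 7; 3 females, 4 males) and mD3AKO killed 60 min after the run (n = 6; 3 females, 3 males). Rested mice spent the same time on a sham treadmill.

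The libraries held 22671457 to 37431801 counts. *Dnmt3a* stood at 93.4 to 131 CPM (counts divided by library size in 1e+06 counts, with edgeR's TMM factors) in WT muscle (116 ± 13.2, mean ± SD, n = 12) and at 34.5 to 53.9 CPM in mD3AKO muscle (40.9 ± 5.86, n = 13), a log2 difference of -1.52 ± 0.07 (SE; edgeR's quasi-likelihood test, adjusted p = 1.5e-13). The muscle markers *Acta1* (26246 to 34621 CPM) and *Myh7*, the slow myosin that marks *soleus* (8498 to 20180 CPM), were high in every library. *Ucp1* of brown fat did not exceed 0.0549 CPM. One library, mouse 15 (a rested mD3AKO male), had the smallest total and stood apart from the other 24 in both mitochondrial rRNAs. Many group values are therefore given with and without it.

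Mitochondrial DNA is a small circle that is read from both strands into long precursors. The tRNAs sit between most of the other genes, and their excision frees the mRNAs and rRNAs. The mRNAs encode core subunits of respiratory complexes I, III, IV and V, the tRNAs and rRNAs serve the mitochondrion's own ribosomes, and all other proteins of the organelle come from nuclear genes. The steady-state level of each RNA is therefore set by both transcription and decay, which these data do not separate. In whole muscle, fewer mitochondria or fewer cells of a type cannot be told apart from less RNA per mitochondrion or per cell.

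The counts covered the 37 genes very unevenly. The rRNAs *mt-Rnr1* (12S, chrM:70-1024) and *mt-Rnr2* (16S, chrM:1094-2675) held 205987 to 1726571 counts (median 263065) and 2107109 to 5436456 counts (median 2935926) per library even after depletion. Their counts, and all shares and ratios that include them, are of the rRNA left after depletion. How completely each library was depleted was not measured here. Among the mRNAs, *mt-Co1* (chrM:5328-6872), the catalytic subunit of complex IV, led with 537042 to 1203173 counts (median 842236). It made up 66.2 to 71.9% of the counts on mitochondrial mRNAs in 24 libraries and 64.5% in mouse 15, a share among the 8 mRNAs that the table counts in numbers, since the other 5 had at most 2 counts. *mt-Cytb* (chrM:14145-15288), the cytochrome b of complex III, had a median of 145556 counts and *mt-Nd1* (chrM:2751-3707), a membrane subunit of complex I, of 117151.

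The next tier was made of other complex I subunits. Median counts were 34027 for *mt-Nd4*, 29433 for *mt-Nd2*, 29373 for *mt-Nd5* and 5322 for *mt-Nd6* (chrM:13552-14070), the one mRNA gene on the minus strand. *mt-Nd3* had a median of only 69 counts, with 41 to 171 per library.

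**Figure D1:**
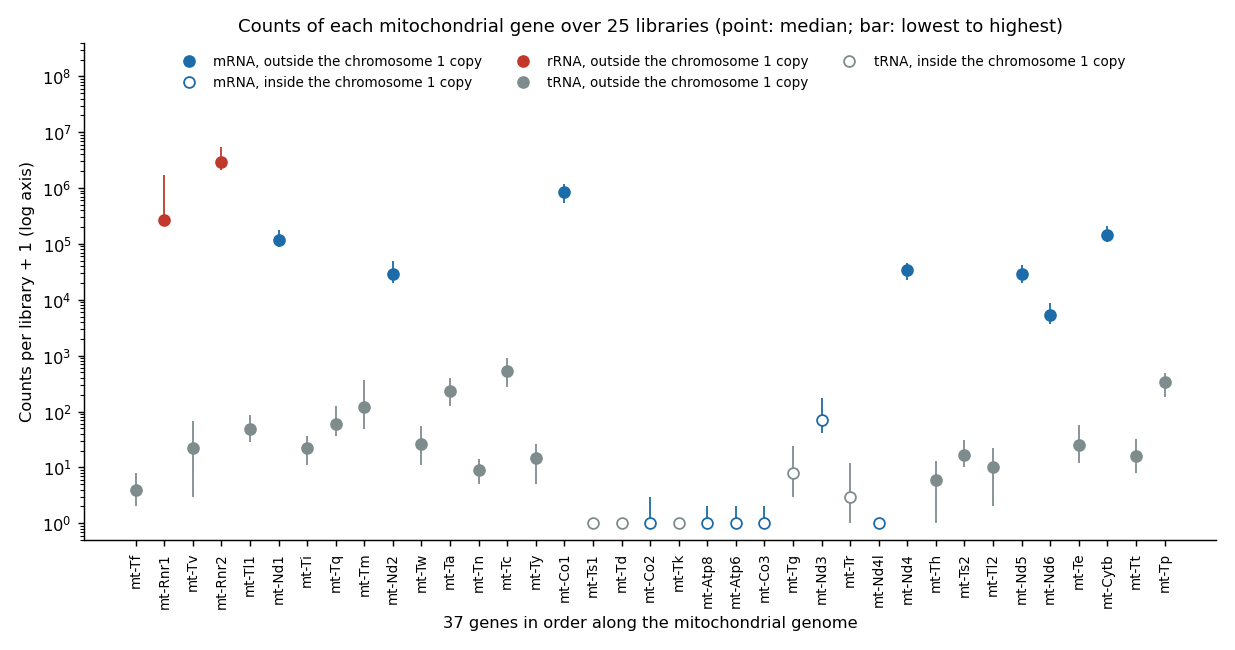
Counts per library (plus 1, log axis) of the 37 mitochondrial genes in their order along the genome; points are medians of 25 libraries, bars run from the lowest to the highest library, and open points mark the 11 genes inside the chromosome 1 copy. The open points form a trough in the middle of the genome, where 8 genes had at most 2 counts in every library.

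In that trough, 8 genes were almost without counts: 5 mRNAs of complexes I, IV and V and 3 tRNAs. *mt-Ts1*, *mt-Td*, *mt-Tk* and *mt-Nd4l* were at 0 in every library. *mt-Co2* and *mt-Co3* of complex IV and *mt-Atp6* and *mt-Atp8* of complex V had at most 2 counts in any library. These are listed values of the count table and no measure of those transcripts: all 8 lie within a stretch of the mitochondrial genome (chrM:6381-11042) that has a colinear copy of 4662 bases in the nuclear genome, at chr1:24611535-24616197 on the minus strand, annotated as 7 pseudogenes. Of the 11 members inside the stretch, 3 had more than 2 counts.

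The first 120 bases of *mt-Co2* show how close the copies are, which is why they are printed here. They come from GENCODE M21 transcripts (GRCm38, the mm10 build the counts use), read 5′ to 3′, with capitals for bases at which a copy differs from the mitochondrial sequence.
mt-Co2, chrM:7013-7132, plus strand: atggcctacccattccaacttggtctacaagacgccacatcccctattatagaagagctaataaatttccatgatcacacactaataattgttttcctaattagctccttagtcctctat
Gm28661, chr1:24615446-24615565, minus strand: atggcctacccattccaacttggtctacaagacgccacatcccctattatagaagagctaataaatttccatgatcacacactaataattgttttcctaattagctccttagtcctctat
Gm13341, chr2:22587843-22587962, minus strand: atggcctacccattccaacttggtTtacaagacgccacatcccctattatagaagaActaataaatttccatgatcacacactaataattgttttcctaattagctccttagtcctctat
The chromosome 1 copy had 0 differences in this stretch and the chromosome 2 copy had 2.

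Cut into every possible word of 75 bases, the length of a read, *mt-Co2* shared 607 of its 610 words with annotated nuclear transcripts, *mt-Atp6* 604 of 607, *mt-Co3* 709 of 710, *mt-Nd4l* 220 of 223 and *mt-Nd3* 268 of 274. A read made of a shared word has no unique place in the genome. *mt-Nd4* shared 802 of 1304 words and *mt-Co1* 586 of 1471. *mt-Nd2* and *mt-Nd5* shared 55 of 964 and 29 of 1750, whereas *mt-Rnr1*, *mt-Rnr2*, *mt-Nd1*, *mt-Nd6*, *mt-Cytb* and *mt-Atp8* shared 0. *mt-Atp8*, with 130 words, was thus near 0 in the table without a shared word among annotated transcripts.

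The chromosome 1 copy held few counts itself, its 7 pseudogenes having 19 to 89 counts together in a library (median 50). A second copy at chr2:22587291-22590533 (chrM:4442-7684, 3243 bases, 8 members inside) held 422 to 944 counts (median 631), nearly all on *Gm13340* (372 to 864). How the authors' counting treated reads with several places was not given in the sources used here.

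Per length, the order of the levels ran from 16S rRNA to *mt-Nd6* over a wide range, with the rRNAs counted after depletion. Their places in the order are therefore no measure of their levels before depletion. To compare genes, CPM was divided by the number of words that a gene shares with no annotated nuclear transcript, in kilobases. Over the 24 libraries without mouse 15, the level was 59335 ± 10772 CPM per kb (mean ± SD) for *mt-Rnr2*, 29600.2 ± 5544 for *mt-Co1* and 9318 ± 1420.4 for *mt-Rnr1*. *mt-Cytb* and *mt-Nd1* followed with 4306 ± 862 and 4262 ± 930.2. *mt-Nd4* stood at 2064 ± 364, *mt-Nd2* at 1071 ± 245, *mt-Nd5* at 534 ± 106 and *mt-Nd6* at 380.1 ± 89.8 CPM per kb.

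Most neighbours in that order kept their places in each mouse. *mt-Rnr2* exceeded *mt-Co1* in 25 of 25 libraries, and *mt-Co1* exceeded *mt-Rnr1* in 24 of 25, the exception being mouse 15. *mt-Cytb* and *mt-Nd1* were not separated, since *mt-Cytb* was higher in only 13 of 25 libraries and the ratio ran from 0.892 to 1.12. *mt-Nd1* was above *mt-Nd4*, *mt-Nd4* above *mt-Nd2* and *mt-Nd2* above *mt-Nd5* in 25 of 25, and *mt-Nd5* above *mt-Nd6* in 24 of 25. With the annotated length as divisor, *mt-Nd4* fell to 771 CPM per kb and below *mt-Nd2* at 979 (25 libraries), so the place of *mt-Nd4* depends on how its shared words are treated.

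**Figure D2:**
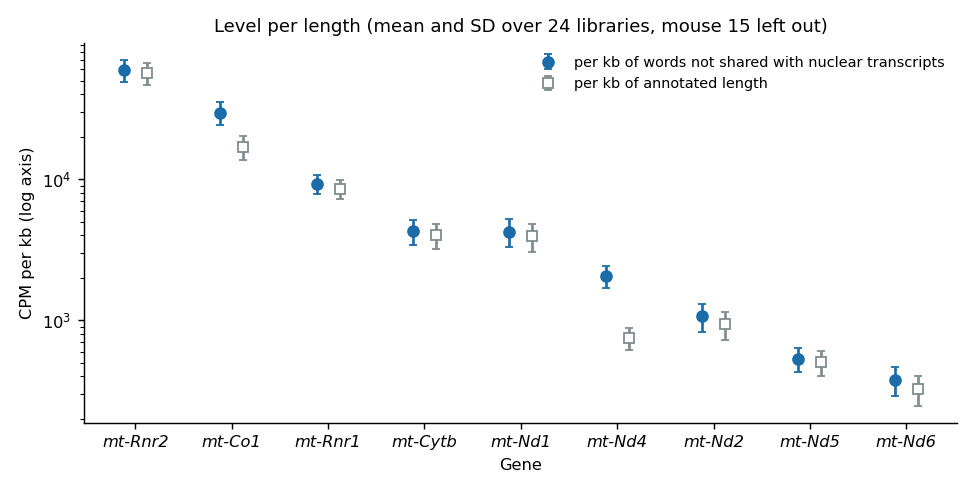
Level of the 2 rRNAs and 7 mRNAs named in the text in CPM per kb (log axis), divided by their own 75-base words or by their annotated length; points are means and bars the SD of the 24 libraries without mouse 15. The divisor moves *mt-Nd4* (2064 against 752 CPM per kb) and *mt-Co1* (29600.2 against 16956) most.

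The tRNAs, the adaptors that carry amino acids to the mitochondrial ribosome, were counted at the edge of detection. Together they made up 0.00330 to 0.00671% of all counts, and 16 of 22 had enough counts for the test. The leading tRNAs, *mt-Tc*, *mt-Tp* and *mt-Ta*, lie on the minus strand, and their genes are printed in the sense of the transcript (GENCODE M21, GRCm38) with the anticodon in capitals, because they carry the differences between mice described further on.
mt-Tc (cysteine), chrM:5192-5257: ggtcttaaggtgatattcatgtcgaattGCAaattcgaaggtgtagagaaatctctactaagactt
mt-Tp (proline), chrM:15356-15422: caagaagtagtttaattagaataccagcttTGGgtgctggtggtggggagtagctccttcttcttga
mt-Ta (alanine), chrM:5018-5086: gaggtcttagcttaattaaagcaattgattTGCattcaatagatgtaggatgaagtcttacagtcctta

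*mt-Tc* had 276 to 910 counts per library, *mt-Tp* 178 to 498 (median 343) and *mt-Ta* 124 to 395 (median 234). *mt-Tm*, which carries methionine, was the only plus-strand tRNA with a median above 100 (120, range 48 to 371). Summed over the 25 libraries, the 8 minus-strand tRNA genes held 31435 counts and the 14 plus-strand genes 7910. The sizes of these genes (66, 67 and 69 bases for the 3 leaders) are below the read length of 75 bases, so the counts are of fragments that reach beyond or within the gene and are no direct measure of mature tRNA.

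The question the design poses first is whether loss of *Dnmt3a* or a bout of exercise changed these RNAs. At the threshold used, no change was called. None of the 26 members that passed the filter on low counts (8 mRNAs, 2 rRNAs and 16 tRNAs) reached an adjusted p under 0.05 for the main effect of genotype, of exercise or their interaction, and DESeq2 called 0 as well. Across all 16340 genes tested, 0.269% were called for genotype, 10.4% for exercise and 0% for the interaction. The 11 members not tested were the 8 genes at 2 counts or fewer together with *mt-Tr*, *mt-Tf* and *mt-Th*.

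As a share of all counts, the 37 genes made up 14.8 ± 2.57% (mean ± SD) in WT at rest (n = 5) and 13.4 ± 2.10% in WT after exercise (n = 7). In mD3AKO muscle the share was 16.1 ± 8.51% at rest (n = 7), or 12.9 ± 1.13% without mouse 15 (n = 6), and 14.0 ± 1.65% after exercise (n = 6). The mRNAs alone made up 3.98 ± 0.721% and 3.72 ± 0.603% in rested and exercised WT mice. In rested and exercised mD3AKO mice they made up 3.67 ± 0.282% and 3.93 ± 0.635%. All 4 means lie within the SD of the rested WT mice.

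*mt-Rnr1*, the 12S rRNA of the small mitoribosomal subunit, stood at 6856, 7849, 8629.9, 9984 and 10191 CPM in the 5 rested WT mice. Exercised WT mice ran from 6436 to 9626 CPM (median 8029.6). Rested mD3AKO mice ran from 6098 to 120753 CPM (median 7603), or to 9119 without mouse 15, and exercised mD3AKO mice from 7733 to 10265 (median 8582). The 4 groups overlap, and mouse 15 alone lies outside the range of the others. The genotype log2 difference (mD3AKO minus WT) was 0.81 ± 0.39 (SE; adjusted p = 0.799) with mouse 15 and -0.02 ± 0.09 without it. The exercise difference was -0.79 ± 0.39 (adjusted p = 0.243) with it and 0.04 ± 0.09 without, so the sign of both values is set by 1 library.

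*mt-Rnr2*, the 16S rRNA of the large subunit, stood at 77348, 82164, 93507, 114503 and 122671 CPM in rested WT mice. It ran from 65833 to 113684 CPM (median 92826) in exercised WT mice, from 67803 to 380214 (median 77264) in rested mD3AKO mice and from 73689 to 118870 (median 94079) in exercised mD3AKO mice. Without mouse 15, rested mD3AKO mice reached at most 91825 CPM. The groups again overlap, and without mouse 15 the genotype difference was -0.11 ± 0.12 and the exercise difference 0.04 ± 0.12. With mouse 15 these differences were 0.21 ± 0.23 and -0.27 ± 0.23.

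*mt-Co1* stood at 21243, 22801, 28237, 28725 and 34490.2 CPM in rested WT mice and from 19863 to 33165 (median 25308) in exercised WT mice. Rested mD3AKO mice ran from 19987 to 37559.5 CPM (median 24702), or to 27756 without mouse 15, and exercised mD3AKO mice from 23419 to 38794 (median 26712). The ranges overlap throughout.

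*mt-Cytb* stood at 3637, 3820.3, 5393, 5533 and 6132 CPM in rested WT mice and at 3349.8 to 5762 (median 4414) after exercise. In mD3AKO mice it ran from 3561 to 7811 (median 4351) at rest and from 3595 to 7223 (median 4633) after exercise. Without mouse 15, rested mD3AKO mice reached at most 4777 CPM. The groups overlap, and the highest value of each mD3AKO group belongs to a single mouse, mouse 15 at rest and mouse 17 after exercise.

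*mt-Nd1* stood at 2849.8, 3152, 3989, 4341 and 5398 CPM in rested WT mice and at 2768 to 4967 (median 3462) after exercise. In mD3AKO mice it ran from 2853 to 6877 (median 3540.3) at rest and from 3189.6 to 6089 (median 3571) after exercise. Without mouse 15 the highest rested mD3AKO value was 4262, inside the range of rested WT mice.

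*mt-Nd6*, the minus-strand mRNA, stood at 142, 148, 186, 199.9 and 276 CPM in rested WT mice and at 115 to 221 (median 148) after exercise. In mD3AKO mice it ran from 140.0 to 462 (median 160.4) at rest and from 151 to 278 (median 161) after exercise, and without mouse 15 the rested group reached only 162. The 4 groups overlap here too.

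**Figure D3:**
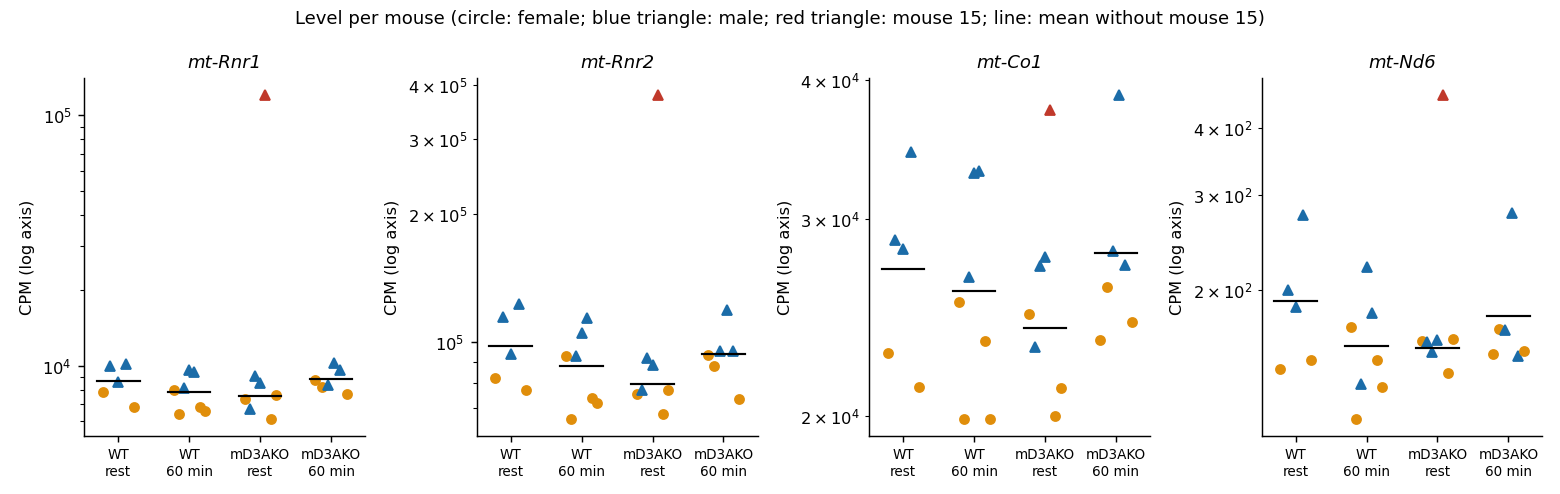
CPM (log axes) of *mt-Rnr1*, *mt-Rnr2*, *mt-Co1* and *mt-Nd6* in each of the 25 mice by group; circles are females, triangles males, red marks mouse 15, and the line is the group mean without mouse 15. Mouse 15 lies far above all others in both rRNAs (120753 and 380214 CPM) and in *mt-Nd6* (462 CPM) but not in *mt-Co1*.

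Over the 26 members, 25 genotype differences were positive with mouse 15 (median log2 difference 0.14, against 0.01 over all genes tested), and 14 of 25 without it. These estimates come from the same libraries and are no independent observations. At an unadjusted p under 0.05 there were 3 members for genotype with mouse 15 (*mt-Rnr1*, *mt-Tv* and *mt-Te*) and 0 without it. Over all genes, 1018 of 16340 and 1017 of 16334 passed that unadjusted level, and without mouse 15 the share called after adjustment was 0.239%. For exercise there were 0 members at that level with mouse 15 (3488 of 16340 genes), where mRNA differences ran from -0.31 to 0.02. Without it no member was called either (11% of all genes tested were called), and mRNA differences ran from -0.15 to 0.08. For the interaction there were 0 members at that level by edgeR (403 of 16340 genes) and 1 by DESeq2 (386 of 16340 genes). In females alone, where 3.03% of genes were called for exercise, *mt-Tp* was called higher after exercise (0.53 ± 0.11, adjusted p = 0.0211), the only call for exercise among the alternatives tried.

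Within the genotypes and times, no member was called. The shares of all genes called were 3.59% for exercise within WT, 6.02% for exercise within mD3AKO, 0.0918% for genotype at rest and 0.11% for genotype after exercise. At an unadjusted p under 0.05, *mt-Rnr1* was the only member in the mD3AKO exercise response (log2 difference -1.43, adjusted p = 0.144) and in the genotype difference at rest (1.45, adjusted p = 1.000), 0 members were in the other comparisons, and DESeq2 called 0 members in each. Over all genes, edgeR gave 2873 of 16340 under that unadjusted level for exercise within mD3AKO and 597 for genotype at rest. Both *mt-Rnr1* values turn sign without mouse 15, to 0.23 and -0.21.

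Without mouse 15, the interaction (the exercise response in mD3AKO minus that in WT) had a positive log2 value for all 8 mRNAs, with a median of 0.41 against 0.01 over all genes, and was positive for 71 of 74 nuclear genes of the respiratory complexes as well. Genotype differences of the 8 mRNAs, also without mouse 15, were all negative at rest (median -0.20) and all positive after exercise (median 0.21). With mouse 15, mean CPM at rest was higher in mD3AKO than in WT mice for *mt-Nd1* (4030 against 3946), *mt-Nd2* and *mt-Nd6*. It was lower in mD3AKO mice for *mt-Co1*, *mt-Cytb* and *mt-Nd3*. Exercise differences without mouse 15 were all negative within WT (median -0.16) and all positive within mD3AKO (median 0.22). With mouse 15, mean CPM within mD3AKO was lower after exercise for *mt-Nd1*, *mt-Nd2*, *mt-Nd3* and *mt-Nd6* and higher for *mt-Co1* and *mt-Cytb*. These fits had no term for sex, and the groups differed in their numbers of females and males. Among WT females the mRNAs made up 3.25% of all counts at rest and 3.31% after exercise. Among WT males they made up 4.47% and 4.26%. Among mD3AKO females they made up 3.41% and 3.61%, and among mD3AKO males 3.86% (3.93% without mouse 15) and 4.25%. The part of sex in these signs was not tested. For the interaction without mouse 15, *mt-Nd5* (0.53), *mt-Nd4* (0.44) and *mt-Rnr1* (0.38) had unadjusted p-values of 0.0146, 0.0269 and 0.0493 by edgeR. Over all genes, 554 of 16334 were under 0.05 unadjusted in that comparison. Each adjusted p was 0.992 and no gene in the table was called. Exact two-sided permutation tests covered the group contrasts of 9 genes, without *mt-Nd4* and *mt-Nd5*, and not the interaction. They left none of these contrasts under 0.05 after Benjamini-Hochberg adjustment over the 72 tests run. The lowest unadjusted value was 0.041 (adjusted 0.156), for *mt-Tp* and exercise within mD3AKO without mouse 15.

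Mouse 15 differed from the other 24 in composition as well as in level. Its *mt-Rnr1* level was 14.8 times and its *mt-Rnr2* level 4.23 times the median of the others, so that it held 31.8 *mt-Rnr1* counts per 100 *mt-Rnr2* counts where the others held 8.30 to 10.5. Of the tested members, 17 of 26 stood above every other library (7 of 8 mRNAs, both rRNAs and 8 of 16 tRNAs), 9 fell within the others' range and 0 below it. Among the mRNAs, *mt-Nd3* (3.33 times the median) and *mt-Nd6* (2.89) stood farthest from the others, whereas *mt-Co1* (1.46) was second among the 25. The tRNAs *mt-Te* (5.47) and *mt-Tg* (4.38) had higher ratios, on only 54 and 13 counts in that library.

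The mRNA and tRNA parts of that difference depend on the scale. As a share of all counts, the mRNAs of mouse 15 made up 3.67%, inside the 2.98 to 5.19% of the others, and per 100 counts of nuclear genes outside rRNA they made up 5.71, inside 3.35 to 6.26. The tRNAs made up 0.00697 per 100 such counts, inside 0.00375 to 0.00787, and 0.00448% of all counts, inside the others' range. The rRNAs stood apart on that scale too, at 49.2 against 8.62 to 15.8. The TMM factor of this library was 0.631, against 0.911 to 1.16 for the others. The nuclear rRNA genes *Gm15564* (14580 counts against 11 to 2788 in the others) and *Gm23935* (71375 against 3945 to 19353) were high in it as well, in the smallest library. Another, *Gm26917*, was low in it, at 18157 counts against 28758 to 87236. The part of these genes in the result was not tested. *Lars2*, the nuclear gene of the mitochondrial leucyl-tRNA synthetase, had 465672 counts in mouse 15 against 327 to 32022 in the others (median 982).

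Some members were called between males and females, both of which were present in every group. Of the 26 members 6 were called, all higher in males: the mRNAs *mt-Co1*, *mt-Nd1*, *mt-Cytb*, *mt-Nd2* and *mt-Nd3*, and *mt-Tp*. Over all genes tested 5.04% were called as higher in males (824 of 16340, with 589 called lower). All 8 mRNAs and both rRNAs, and 14 of 16 tRNAs, had positive log2 differences (male minus female, averaged over the 4 groups), with a median of 0.30 over the members and -0.02 over all genes.

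*mt-Co1* ran from 19863 to 26103 CPM in the 12 females (median 23079) and from 23078 to 38794 in the 13 males (median 28237). The lowest male lies at the female median, and 12 of the 13 males lie above the highest female. The log2 difference was 0.43 ± 0.09 (SE), or 1.34 times, with an adjusted p of 0.00434. *mt-Nd1* ran from 2768 to 3652 CPM in females (median 3268) and from 3462 to 6877 in males (median 4262). It was 0.49 ± 0.11 higher on the log2 scale (adjusted p = 0.00728).

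*mt-Cytb* ran from 3349.8 to 4838 CPM in females (median 3957) and from 4006 to 7811 in males (median 5272). Its log2 difference was 0.44 ± 0.10 (adjusted p = 0.0108). *mt-Nd2*, another membrane subunit of complex I, ran from 623 to 975 CPM in females (median 869) and from 868 to 2041 in males (median 1071), a log2 difference of 0.49 ± 0.13 (adjusted p = 0.0185). The females of both genes cover the lower part of the male range.

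*mt-Nd3* ran from 1.28 to 2.53 CPM in females (median 1.81) and from 1.55 to 7.13 in males (median 3.29), with a log2 difference of 0.86 ± 0.21 (adjusted p = 0.0132). Nearly all its words are shared with the nuclear copy, so its value is uncertain. *mt-Tp* ran from 5.31 to 12.5 CPM in females (median 9.17) and from 7.66 to 21.8 in males (median 13.4), with a log2 difference of 0.56 ± 0.14 (adjusted p = 0.0156). The calls of *mt-Tp* and *mt-Nd2* were lost when 1 rested WT female was left out, mouse 1 for *mt-Tp* (adjusted p = 0.0506) and mouse 20 for *mt-Nd2* (adjusted p = 0.0523).

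The mRNAs that were tested and not called also had positive values. *mt-Nd4* and *mt-Nd5* both had log2 differences of 0.30 (adjusted p = 0.0814 and 0.144). *mt-Nd6* ran from 115 to 171 CPM in females (median 149.8) and from 133 to 462 in males (median 181), a difference of 0.47 (adjusted p = 0.0743). Without mouse 15 the highest male stood at 278 CPM.

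For the rRNAs, the call changed when mouse 15, a male, was left out. *mt-Rnr2* ran from 65833 to 93005 CPM in females (median 76259) and from 77264 to 380214 in males (median 95282), with a log2 difference of 0.58 ± 0.20 (adjusted p = 0.0746) that became 0.36 ± 0.08 (adjusted p = 0.00773) without mouse 15. It was also called without mouse 7 or without mouse 12, other rested mD3AKO males. *mt-Rnr1* ran from 6098 to 8804 CPM in females (median 7468) and from 6727 to 120753 in males (median 9439), with 0.83 ± 0.34 (adjusted p = 0.134) becoming 0.30 ± 0.07 (adjusted p = 0.00982). Without mouse 15, 9 of 25 members were called, the 6 above with *mt-Rnr1*, *mt-Rnr2* and *mt-Nd6* (0.34, adjusted p = 0.0443), against 5.09% of all genes.

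Within groups, all 8 mRNAs and both rRNAs had the higher male mean in 4 of 4 groups, as had 3 of 16 tRNAs, but without mouse 15 the ratio in rested mD3AKO mice was 0.995 for *mt-Nd4* and 0.971 for *mt-Nd5*. The male to female ratio of *mt-Co1* ran from 1.28 to 1.40 over the groups and that of *mt-Nd1* from 1.32 to 1.52, and that of *mt-Rnr2* from 1.22 to 2.17. The 2.17 belongs to rested mD3AKO mice and was 1.17 without mouse 15, the other groups lying at 1.22 to 1.38, and in the same group *mt-Co1* went from 1.32 to 1.19 and *mt-Nd1* from 1.44 to 1.21. With 2 to 4 mice of a sex in each group, the sexes did not overlap in 4 of 4 groups for *mt-Rnr2* and in 3 for *mt-Co1*. They did not overlap in 2 groups for *mt-Rnr1*, *mt-Nd1*, *mt-Nd3*, *mt-Nd4*, *mt-Nd5* and *mt-Tq*. In 1 group this held for *mt-Cytb*, *mt-Nd2*, *mt-Nd6*, *mt-Tp*, *mt-Ti*, *mt-Tl1*, *mt-Ts2*, *mt-Tt* and *mt-Ty*. The male mean of *mt-Tq* was the higher one in only 2 of 4 groups (lowest ratio 0.753), as was that of *mt-Tl1*. By edgeR's test 5.04% of all genes were called higher in males, which is not a share of genes without overlap. That share was not computed. How often groups this small fail to overlap by chance was not computed either, so these counts only describe the values. A permutation test of *mt-Co1* between the sexes over all mice gave a two-sided p of 1e-05, the smallest its resamples can give (adjusted p = 0.00072 over the 72 tests). As a share of all counts the mRNAs made up 3.40 ± 0.219% (2.98 to 3.73%) in females and 4.18 ± 0.486% (3.61 to 5.19%) in males.

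**Figure D4:**
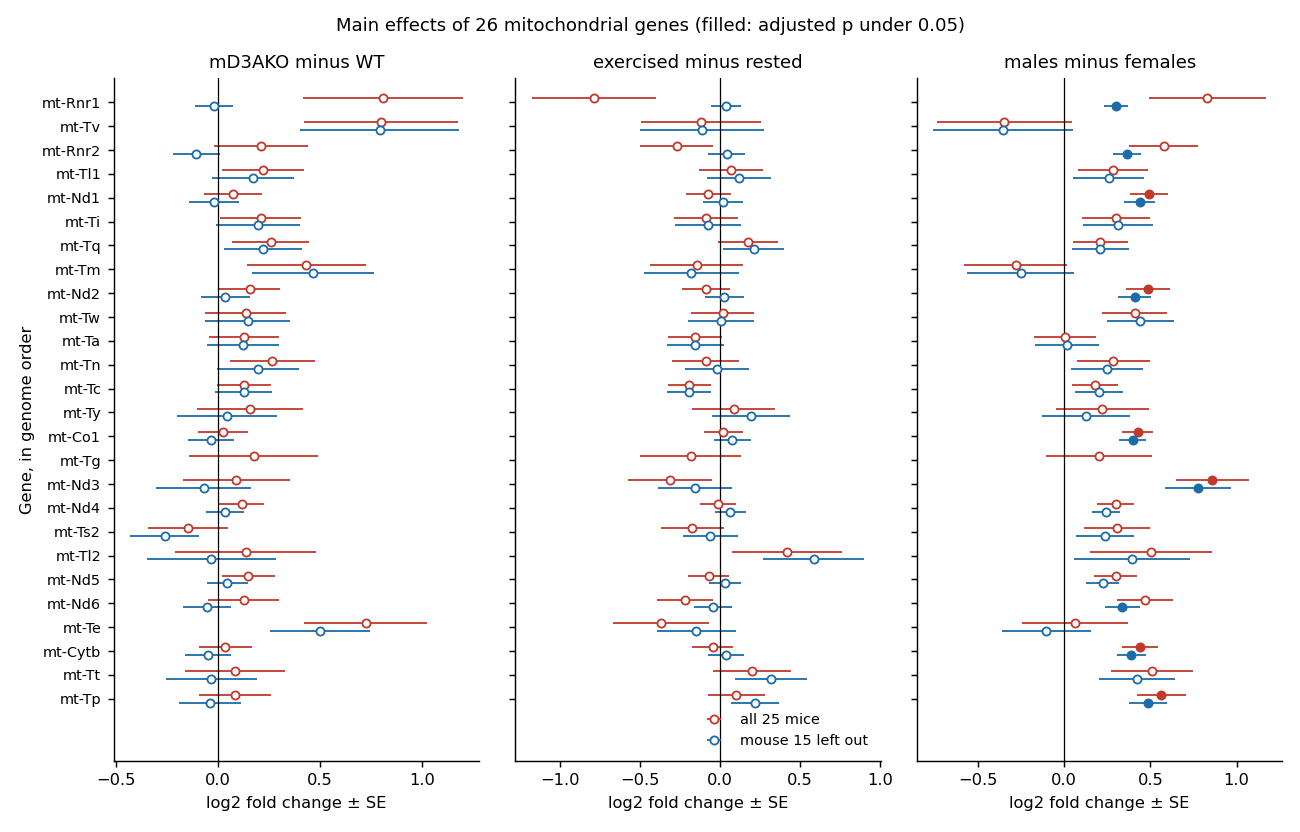
Log2 differences (points) with SE (bars) of the 26 tested members for genotype, exercise and sex, with and without mouse 15; filled points have an adjusted p under 0.05. Filled points occur only for sex, all to the right of 0, and the wide bars of *mt-Rnr1* shrink when mouse 15 is left out.

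Sex cannot be told apart from the order in which the mice were numbered, since the males are mice 7 to 19 and the females mice 1 to 6 and 20 to 25. The labels do not say what the numbers stand for. Against the females 1 to 6 alone, where 2.02% of genes were called as higher in males, only *mt-Cytb* was called (log2 difference 0.48, adjusted p = 0.0477), with *mt-Co1* at 0.37 and *mt-Nd1* at 0.46. All 8 mRNAs were positive (0.28 to 0.74, median 0.44), but only 7 of 16 tRNAs were. Against the females 20 to 25, with 8.14% of genes called, 6 members were called, 3 of which (*mt-Co1*, *mt-Nd1* and *mt-Nd3*) are among the 6 called over all mice. All 8 mRNAs (median 0.47) and all 16 tRNAs (median 0.49) were then positive.

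Between the runs of females, 2 of 14 tRNAs and 0 of 8 mRNAs were called, and the difference between tRNAs and mRNAs was not tested. Between females 20 to 25 and females 1 to 6, log2 differences of the mRNAs ran from -0.11 to 0.11 and those of the rRNAs were -0.13 and -0.14, and 0 of these 10 were called. Of 14 tRNAs tested, 12 were negative (median -0.47), and *mt-Ta* (-0.77 ± 0.18) and *mt-Tc* (-0.59 ± 0.14) were called lower in the later run, both with an adjusted p of 0.0499, where 1.04% of all genes were called lower. *mt-Tc* stood at 15.7 to 23.5 CPM in the 6 females of the first run (18.9 ± 2.83, SD) and at 8.74 to 15.5 in the 6 of the second (12.7 ± 2.21), with males at 18.2 ± 3.97. Some other summed levels differed between the runs as well, and those given here are not all the lists that were summed. Fast-fiber genes, for example, summed to 23764 ± 4068 CPM (17146 to 27598) in the first run and 24612 ± 3913 (19409.5 to 28573) in the second. The summed level of 4 Schwann cell markers was 49.2 ± 13.1 CPM (35.5 to 70.1) in the first run and 229 ± 168 (43.1 to 492.7) in the second. That of 5 adipocyte markers was 108 ± 59.7 (32.7 to 199) and 332 ± 181 (99.0 to 535), and that of 5 fibroblast markers 1257 ± 421 (891 to 2024) and 1926 ± 475 (1408 to 2637). The 36 nuclear complex I genes summed to 8322 ± 323 (7724 to 8587) and 7419.9 ± 603 CPM (6957 to 8567). Slow-fiber genes summed to 42401 ± 4836 (38254 to 51373) and 36098.5 ± 3233 (32247 to 39831), nuclear rRNA genes to 2108 ± 453 (1397 to 2771) and 1468 ± 233 (1101 to 1716), and 2 brown adipocyte markers to 6.32 ± 1.55 (3.98 to 8.47) and 3.97 ± 1.18 (2.75 to 5.65). Of the 9 nuclear rRNA genes 3 were at 0 in all libraries of both sexes, and of the other genes none was. Of the 2 brown adipocyte markers, *Ucp1* was at 0 in every female of both runs. Their part in the result was not tested. The comparison of runs was chosen after the values were seen.

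**Figure D5:**
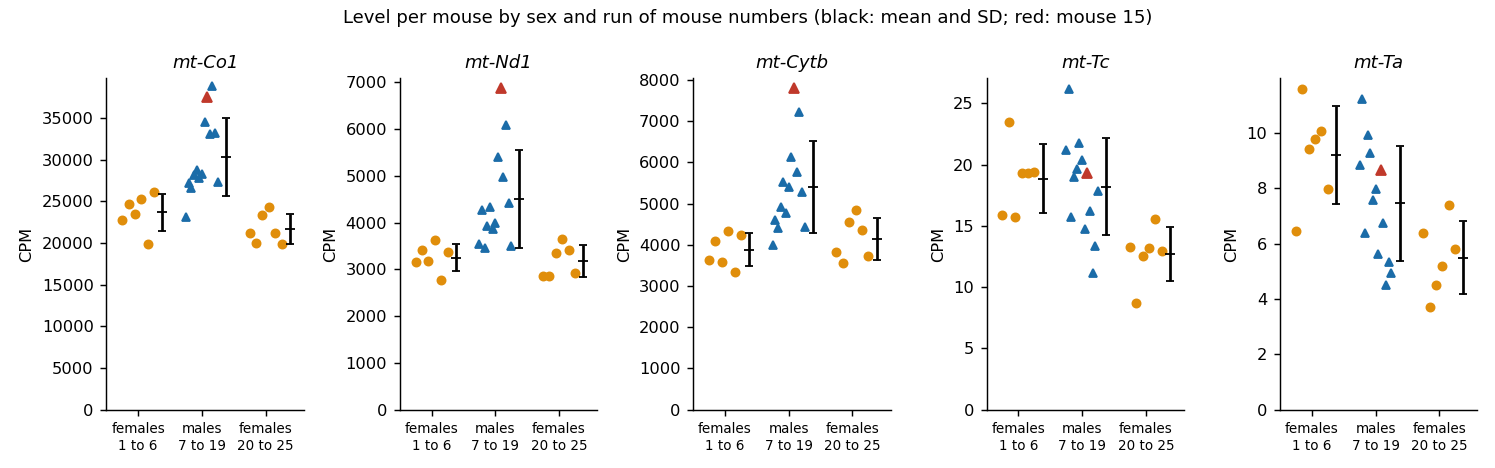
CPM of *mt-Co1*, *mt-Nd1*, *mt-Cytb*, *mt-Tc* and *mt-Ta* in females 1 to 6, males 7 to 19 and females 20 to 25; points are mice, and the lines give mean and SD. The means of both female runs lie below that of the males in the 3 mRNAs, with mice overlapping, whereas in *mt-Tc* females 1 to 6 (18.9 CPM) lie beside the males (18.2) and females 20 to 25 (12.7) below them.

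Fiber-type markers moved with sex as well. Of 7 slow-fiber genes, 6 were called lower in males (median log2 difference -0.37), beside 589 of all 16340 genes, and their summed level was 39250 ± 5120 CPM (32247 to 51373) in females and 30933 ± 2239 CPM (26999 to 34623) in males. Of 7 fast-fiber genes, 4 were called higher in males (median 0.35), beside 5.04% of all genes, with sums of 24188 ± 3831 (17146 to 28573) and 28898 ± 4107 CPM (20403 to 34001). None of the 14 was at 0 in all libraries, and their part in the mitochondrial difference was not tested.

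Nuclear genes for mitochondrial proteins were compared between the sexes in lists of the pathway. Of 74 nuclear subunits of complexes I, III, IV and V, 31 were called higher in males and 0 lower (5.04% of all genes were called higher), and 71 had positive log2 differences. The count depended on the scaling and on the females used: 1 of 74 was called without TMM (0.924% of all genes), 0 against females 1 to 6 (2.02%) and 60 against females 20 to 25 (8.14%). By complex, 16 of 36 were called in complex I, 5 of 9 in III, 4 of 14 in IV and 6 of 15 in V, with medians of 0.17 to 0.23. *Cox7a1*, the muscle form of a complex IV subunit (0.37, adjusted p = 0.00282), *Atp5g3* of the ATP synthase ring (0.30, adjusted p = 0.00378) and *Ndufa10* of complex I (0.25, adjusted p = 0.00266) are examples.

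Of 78 mitoribosomal proteins, 14 were called higher in males, beside 5.04% of all genes. None of the 78 was called without TMM (0.924%) or against females 1 to 6 (2.02%), and 40 were against females 20 to 25 (8.14%). Of 20 genes of RNA processing and decay, 4 were, among them *Lrpprc*, which stabilizes mitochondrial mRNAs (0.18, adjusted p = 0.0183), and of 37 genes of tRNA charging and modification 3 were. None of 11 transcription genes was called, with 0.24 for *Mrpl12* (adjusted p = 0.0547) the nearest, and of 13 replication genes only the exonuclease *Mgme1* was, lower in males (-0.27, adjusted p = 0.00766). The difference in frequency between lists was not tested.

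For genotype and the interaction, 0 genes of these lists were called. After exercise, *Tk2*, the mitochondrial thymidine kinase (-0.28, adjusted p = 0.00216), and *Primpol* (-0.40, adjusted p = 0.00991) were called lower, beside 10.4% of all genes called in either direction, and the rRNA methyltransferase *Mrm1* (0.24, adjusted p = 0.0240) and *Mrps6* (0.18, adjusted p = 0.0191) higher. No subunit of the respiratory complexes was called after exercise, while the exercise-responsive genes *Atf3* (4.30), *Nr4a3* (3.13) and *Ppargc1a* (1.10) were.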

How the data were processed

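The authors isolated total RNA, depleted ribosomal RNA (Ribo-Zero Gold, in a stranded TruSeq kit), sequenced 75-bp read pairs and deposited raw counts per gene for all 25 libraries, with a gene length column of other unit that was used only as the annotated length. Their methods name mm10 and GENCODE M15, and the submitters' processing notes name FastQC 0.11.5, STAR 2.5.3a and featureCounts 1.5.3. The strand and multimapping options of the counting are not given in the sources used here, so for genes that overlap, as *mt-Nd5* and *mt-Nd6* do, reads may be shared.

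The counts were tested with edgeR 4.0.16 (limma 3.58.1, R 4.3.3): genes kept by filterByExpr (minimum count 10, minimum total 15), TMM factors, one mean per group of genotype and exercise, glmQLFit and glmQLFTest, Benjamini-Hochberg adjustment over all genes tested and a call at an adjusted p under 0.05. The test between sexes used one mean per group of sex, genotype and exercise. Single genes were also compared by two-sided permutation tests of CPM, exact between the groups of genotype and exercise. Sums, shares and ratios over several genes are descriptions without a test. DESeq2 1.42.0, other scalings, no filter, one sex alone and each mouse left out in turn were alternatives, and the script was tested on simulated data. Shared words came from GENCODE M21 transcripts. Depth was 22671457 to 37431801 counts a library. Within groups, 0 of 67 pairs of libraries held identical values, and each pair differed beyond counting noise (lowest chi-square per gene 12.9). Each library is a separate mouse.

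Group values were given for *mt-Rnr1*, *mt-Rnr2*, *mt-Co1*, *mt-Cytb*, *mt-Nd1* and *mt-Nd6*, and for up to 8 other members called in a main effect with the smallest p. The members, gene lists and rules were chosen with earlier results of these data known. Python 3.11.15, numpy 2.4.6, pandas 2.3.3 and matplotlib 3.10.9 were used for tables and figures.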

Additional observations from a re-analysis of the deposited data

Results flagged for a closer look

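Values were examined for a mouse far from the rest of its group in 52 groups of 5 to 7 mice, of which 17 held one, where chance gives about 1 in 20. The 52 groups are not independent, since they are 13 measures of the same mice, and all 17 values belong to 2 mice.

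Mouse 15, a rested mD3AKO male, was the highest of its group by a wide gap in *mt-Rnr1* (120753 CPM), *mt-Rnr2* (380214 CPM), *mt-Cytb* (7811 CPM), *mt-Nd1* (6877 CPM), *mt-Nd2* (2041 CPM), *mt-Nd6* (462 CPM) and *mt-Tp* (21.8 CPM). The 37 mitochondrial genes took 35.3% of its counts and the rRNAs 31.6%.

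Mouse 17, an exercised mD3AKO male, was the highest of its group in *mt-Co1* (38794 CPM), *mt-Cytb* (7223 CPM), *mt-Nd1* (6089 CPM), *mt-Nd2* (1723 CPM), *mt-Nd6* (278 CPM), *mt-Nd3* (5.15 CPM) and *mt-Tp* (16.7 CPM). The mRNAs took 5.19% of its counts, the highest share of the 25 libraries, and neither rRNA was among its distant values.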

How the results depend on the processing

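Every alternative left 0 members called for genotype, for the interaction and within groups. For exercise, 1 member (*mt-Tp*, 0.53 ± 0.11, adjusted p = 0.0211) was called in females alone. For sex, 1 was called against females 1 to 6 (2.02% of all genes higher in males), 7 by DESeq2 (6.87%), 9 without the filter (2.15%) and 5 to 9 with each mouse left out (2.92 to 6.36%): 5 without WT rest mouse 1 or 20, and 9 without mD3AKO rest mouse 7 or 15. Without TMM the same 6 were called (0.924%), but the median of all genes moved to -0.12 and calls over all genes split into 151 higher and 605 lower. Per 100 nuclear counts outside rRNA, mRNA shares were 4.70 (WT rest), 4.32 (WT exercised), 4.44 (mD3AKO rest; 4.23 without mouse 15) and 4.59 (mD3AKO exercised).

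Where genotype and exercise values turned sign, those after the turn ran from -0.21 to 0.23, with adjusted p of 0.338 or more. The *mt-Rnr1* values before the turn, given above for all mice, were larger. For genotype the values after the turn were, without mouse 15, *mt-Rnr1* -0.019, *mt-Rnr2* -0.11, *mt-Co1* -0.034, *mt-Cytb* -0.050, *mt-Nd1* -0.020 and *mt-Nd6* -0.054. They were -0.0059 for *mt-Rnr1* with DESeq2, -0.030 for *mt-Co1* and *mt-Cytb* without TMM, and -0.030 and -0.0025 for the same genes in males alone. For exercise they were, without mouse 15, *mt-Rnr1* 0.039, *mt-Rnr2* 0.043, *mt-Cytb* 0.039 and *mt-Nd1* 0.020. They were 0.028 for *mt-Rnr1* with DESeq2, 0.074, 0.065, 0.084 and 0.074 for *mt-Rnr1*, *mt-Rnr2*, *mt-Cytb* and *mt-Nd1* in females alone, and for *mt-Cytb* 0.016 with sex and 0.024 with runs of mouse numbers as a term. *mt-Rnr1* at rest was -0.21 without mouse 15, -0.18 with DESeq2 and -0.075 in females alone, and its exercise response within mD3AKO 0.23, 0.20 and 0.23.

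With each mouse left out, genotype values ran from -0.019 to 0.89 (*mt-Rnr1*), -0.11 to 0.26 (*mt-Rnr2*), -0.034 to 0.075 (*mt-Co1*), -0.050 to 0.081 (*mt-Cytb*), -0.020 to 0.14 (*mt-Nd1*) and -0.054 to 0.21 (*mt-Nd6*). Exercise values ran from -0.87 to 0.039 (*mt-Rnr1*), -0.32 to 0.043 (*mt-Rnr2*), -0.039 to 0.079 (*mt-Co1*), -0.12 to 0.039 (*mt-Cytb*) and -0.16 to 0.020 (*mt-Nd1*). *mt-Rnr1* at rest ran from -0.21 to 1.62 and within mD3AKO from -1.60 to 0.23. The cause was not tested. No paired analysis was possible because the groups share no mouse number.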

Other observations

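*Gm13340*, the pseudogene that holds most counts of the chromosome 2 copy, had a log2 difference between the sexes of 0.43 ± 0.08 (edgeR's quasi-likelihood test, adjusted p = 0.00291), beside 0.43 for *mt-Co1*. It was the only one of 6 tested nuclear copies to be called, and whether its reads came from the nucleus or from mitochondrial RNA cannot be told apart.

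The genotype value of *Lars2* also rested on mouse 15, with a log2 difference of 3.48 ± 1.2 (adjusted p = 0.467) that became 0.82 (adjusted p = 0.956) without it.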
